A study of Homo sapiens with 9 samples.

Results

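The genes examined were the replication licensing, clamp and G1/S genes, 37 genes chosen by symbol and role and not by a measured value. Earlier results of these data were known when they were chosen. The 37 genes comprise the MCM2-7 helicase, the origin recognition complex with its loading factors CDC6 and CDT1, and the helicase activators CDC45, GINS1 to GINS4 and MCM10. They also comprise the clamp PCNA with its loader RFC1 to RFC5 and the flap nuclease FEN1, 4 enzymes of nucleotide supply, and regulators of entry into S phase. By symbol, 36 of the 37 had a row among the 46846 features of the deposited table, and E2F2 is not analysed here. All 36 had a mean of at least 10 over the libraries and were among the 16846 features tested. The lowest mean of the 36 was 885, so the shares of all features given below are not matched to these genes in level.

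RNA with a poly-A tail was sequenced in 9 libraries of 3 groups from the human cell line MDA-MB-231, which was derived from a triple-negative breast tumour. The groups were indisulam at 3.3 µM for 12 h (3 libraries), pladienolide B at 10 nM for 6 h (3 libraries) and the solvent DMSO, labelled 12 h (3 libraries). Indisulam brings the splicing factor RBM39 to a ubiquitin ligase for degradation, and pladienolide B binds the SF3b complex that recognises intron branch sites. The pladienolide B libraries differ from the DMSO libraries in time as well as drug, and from the indisulam libraries in drug, dose and time, which cannot be told apart. Nothing in the labels says that the 3 libraries of a group came from separate cultures, and p-values therefore rest on a spread between libraries that may be technical. All values come from 1 cell line, and a lower level in bulk RNA can mean fewer cells with the transcript or less of it per cell, which cannot be told apart here.

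Before S phase, the origin recognition complex together with CDC6 and CDT1 loads the MCM2-7 ring onto DNA in an inactive form, a step called licensing. At S phase entry, CDC45 and the GINS complex join the ring and turn it into the active helicase, while the RFC complex loads the PCNA ring that holds the polymerases on DNA. Many of these genes are transcribed late in G1 by E2F factors once G1 cyclins and their kinases have inactivated the retinoblastoma protein. Their high levels in breast tumours accompany proliferation.

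The libraries held 59312100 to 83910831 reads, and the 36 genes together took 0.3397% to 0.3718% of the deposited signal in indisulam libraries, 0.3199% to 0.3366% in pladienolide B libraries and 0.3875% to 0.4144% in DMSO libraries. The deposited values were counts divided by 1 size factor per library, and under that scaling the pladienolide B libraries had 1.388 times the total of the DMSO libraries, against 1.038 times for indisulam. If every library was instead given the same total, all pladienolide B fold changes against DMSO moved by about -0.47 on the log2 scale. Called directions that depend on this choice are stated with the results. The mesenchymal markers VIM, CD44, AXL and ITGB1, typical of this cell line, were abundant in all libraries, while ESR1 and PGR, absent by definition from triple-negative cells, were listed at 0 to 2.04, and ERBB2 stood at 5102 to 5977. Summed levels of the 9 luminal epithelium markers were 90353 to 93714 with indisulam, 135808 to 147691 with pladienolide B and 93726 to 100891 in DMSO. Most of each sum was KRT8 and KRT18. The 4 leukocyte markers summed to 8117 to 8969 with indisulam, 12764 to 16648 with pladienolide B and 7433 to 8626 in DMSO, nearly all of it CD68 and LAPTM5, with PTPRC at 2.09 to 26.1 and CD3E at 0 to 3.66. The luminal markers ESR1, PGR and FOXA1 and the leukocyte marker CD3E were too low to be tested. Relative to DMSO, 4 mesenchymal, 5 luminal and 2 leukocyte markers were called higher with pladienolide B as deposited, where 34.3% of all tested features were higher. With the same total 2 mesenchymal (CD44, ITGB1), 3 luminal (EPCAM, GATA3, KRT8) and 1 leukocyte marker (CD68) were higher, and AXL, KRT18 and ERBB2 were lower. Of all tested features 16.2% were then higher and 53.9% lower. As deposited, CD44 and GATA3 were higher with indisulam and AXL and KRT18 lower, where 14.5% of all tested features were higher and 12.4% lower. These calls held with the same total, where VIM was lower too (-0.17, limma adjusted p = 0.0169). The part of these markers in the results was not tested.

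RefSeq promoter windows (GRCh38.p14, 250 bases before to 50 after the start) were found for 31 of the 36 genes. A script searched them on both strands for 4 words of the E2F site, TTTGGCGC, TTTCGCGC, TTTCCCGC and TTTGCCGC, counting words that overlap each other separately. A word was present in a window of 15 of the 31 genes (48.4%), against 1090 of 27305 genes of the same table (3.99%). They included all 4 MCM genes with a window, 3 of 8 genes of origin recognition and loading, 3 of 5 of helicase activation, 2 of 7 of the clamp and its loader, 1 of 4 of nucleotide supply and 2 of 3 G1/S regulators. The CCAAT box, searched as CCAAT on both strands, was in a window of 20 of the 31 genes (64.5%), against 39.7% of all genes. The CHR element, searched as TTTGAA or TTCGAA, was in 2 of the 31 (6.45%), against 19.5% of all genes.

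Windows of 230 bases, from 200 before the RefSeq start and including the first 30 transcribed bases, are printed for 4 MCM genes, CDC6, PCNA and ORC6. They were chosen because the MCM genes were all higher as deposited with pladienolide B, CDC6 and PCNA stand for different responses beside an E2F word, and ORC6 had no such word. Each is written 5′ to 3′ on the strand of the gene, with E2F words in capitals. They lie at chr3:127598211-127598440 (MCM2, plus strand), chr6:52284713-52284942 (MCM3, minus), chr2:135876414-135876643 (MCM6, minus) and chr7:100101368-100101597 (MCM7, minus). The others lie at chr17:40287679-40287908 (CDC6, plus), chr20:5126593-5126822 (PCNA, minus) and chr16:46689459-46689688 (ORC6, plus). For MCM7 and PCNA, which have several RefSeq starts, the window nearest the start of the deposited feature is shown.
MCM2: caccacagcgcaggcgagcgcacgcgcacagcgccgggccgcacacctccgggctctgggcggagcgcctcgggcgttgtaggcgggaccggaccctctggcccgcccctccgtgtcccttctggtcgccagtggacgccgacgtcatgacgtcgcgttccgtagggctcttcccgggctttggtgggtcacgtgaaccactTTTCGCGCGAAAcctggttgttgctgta
MCM3: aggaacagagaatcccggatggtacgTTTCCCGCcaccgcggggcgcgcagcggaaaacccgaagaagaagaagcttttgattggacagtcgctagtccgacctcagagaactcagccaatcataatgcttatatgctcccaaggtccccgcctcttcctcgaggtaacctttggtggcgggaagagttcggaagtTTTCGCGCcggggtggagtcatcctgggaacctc
MCM6: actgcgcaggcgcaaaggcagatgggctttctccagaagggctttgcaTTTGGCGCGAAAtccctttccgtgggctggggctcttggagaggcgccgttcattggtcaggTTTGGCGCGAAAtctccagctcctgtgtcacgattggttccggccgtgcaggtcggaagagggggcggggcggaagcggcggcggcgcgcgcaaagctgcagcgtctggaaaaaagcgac
MCM7: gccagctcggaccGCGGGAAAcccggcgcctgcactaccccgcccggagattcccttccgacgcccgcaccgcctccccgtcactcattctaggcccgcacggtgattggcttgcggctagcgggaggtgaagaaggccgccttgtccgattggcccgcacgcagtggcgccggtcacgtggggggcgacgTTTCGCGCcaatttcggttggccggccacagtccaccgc
CDC6: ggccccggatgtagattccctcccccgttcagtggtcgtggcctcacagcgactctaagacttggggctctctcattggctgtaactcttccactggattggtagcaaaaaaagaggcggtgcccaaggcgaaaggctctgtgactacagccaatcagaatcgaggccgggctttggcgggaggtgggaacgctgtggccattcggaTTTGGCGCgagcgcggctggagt
PCNA: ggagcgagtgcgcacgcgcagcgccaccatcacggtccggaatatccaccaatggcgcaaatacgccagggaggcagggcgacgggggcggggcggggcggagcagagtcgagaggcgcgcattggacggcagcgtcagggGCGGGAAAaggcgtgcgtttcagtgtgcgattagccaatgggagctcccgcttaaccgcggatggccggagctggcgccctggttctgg
ORC6: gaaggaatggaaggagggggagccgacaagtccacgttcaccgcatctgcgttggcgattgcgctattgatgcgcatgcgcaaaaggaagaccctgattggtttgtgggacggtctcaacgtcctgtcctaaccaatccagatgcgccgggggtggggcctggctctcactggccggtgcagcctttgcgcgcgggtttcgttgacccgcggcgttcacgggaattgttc

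In MCM6 the word occurred in a pair of copies that began 152 and 90 bases before the start, and each run of capitals held a word on either strand. MCM3 had words 174 and 4 bases before the start and MCM7 had them 187 and 9 bases before it. In MCM2 and CDC6 the word lay just after the start, and in PCNA it began 59 bases before it. The window of ORC6 held CCAAT boxes and no E2F word, which says only that these letters are not in this window.

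Relative to DMSO, 15 of the 36 genes (41.7%) were lower with indisulam and 3 (8.33%) were higher at a limma adjusted p under 0.05, where 12.4% of all tested features were lower and 14.5% higher (18 genes either way, 50%, against 26.9%). The lower genes were ORC2, CDC6, CDC45, GINS4, PCNA, RFC2, RFC3, RFC5, RRM2, TYMS, TK1, CCNE1, CCNE2, E2F1 and UHRF1, with no MCM2-7 gene among them. The 3 higher genes were ORC1, ORC6 and RFC1. Over all features called, 53.8% were higher as deposited, 42.9% after TMM scaling and 40.3% if libraries were given the same total, and all 15 lower genes were called lower under both. With the same total 10.2% of all features were higher with indisulam and 15.1% lower, beside 2 and 16 of the 36 genes. The median log2 fold change was -0.14 over the 36 genes and 0.05 over all tested features, and the 3 indisulam and 3 DMSO values did not overlap in 21 genes (58.3%), against 48.4% of all features. None of the 36 was called at a 2-fold change with indisulam, where 1.47% of all features were that much lower and 2.17% that much higher.

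With pladienolide B, also set against DMSO, 14 of the 36 genes (38.9%) were higher and 16 (44.4%) were lower, where 34.3% of all tested features were higher and 35.5% lower (30 genes either way, 83.3%, against 69.8%). The higher genes were all of MCM2 to MCM7, CDC45, GINS2, GINS4, RFC2, FEN1, RRM1, TYMS and TK1, with none at 2-fold, where 9.62% of all features were. With the same total per library only MCM6, TYMS and TK1 of these 14 were still higher, MCM7 and FEN1 were lower, while 16.2% of all features were higher and 53.9% lower (23.1% of those called were higher, against 49.1% as deposited). All 16 lower genes were also lower with the same total, where 23 of the 36 were called so. Of the 16, ORC2, ORC5, ORC6, GINS1, MCM10, RFC4, CCNE2 and UHRF1 were at least 2-fold lower, which makes 8 of 36 where 17.9% of all features were that low. The median over the 36 genes was 0.01, beside -0.01 over all features, and the groups did not overlap in 30 genes (83.3%), against 71.8% of all features.

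The comparisons with DMSO share the DMSO libraries, so their fold changes are only set side by side. The genes lower with indisulam and higher with pladienolide B were CDC45, GINS4, RFC2, TYMS and TK1, of which TYMS and TK1 were still higher with the same total while CDC45, GINS4 and RFC2 turned to -0.22, -0.02 and -0.06 without being called. Those higher with indisulam and lower with pladienolide B were ORC6 and RFC1. Lower with both drugs were ORC2, CDC6, RFC3, RRM2, CCNE1, CCNE2 and UHRF1. ORC3 and E2F8 passed the threshold with neither.

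**Figure D1:**
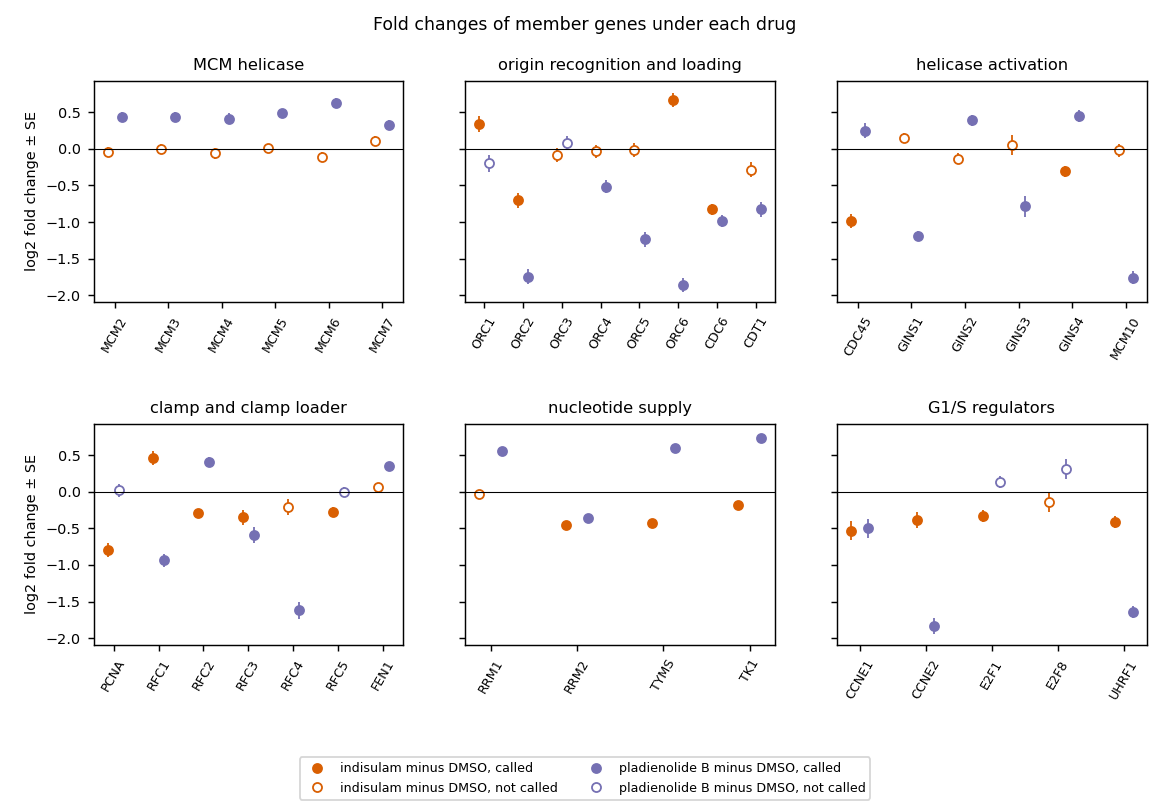
Log2 fold change ± SE of each gene against DMSO (y axis), grouped by role, for indisulam (orange) and pladienolide B (purple); filled points have a limma adjusted p under 0.05. The MCM2-7 panel shows open orange points near 0 and filled purple points from 0.33 to 0.63, while the panel of origin recognition and loading spans 0.67 to -1.86.

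The 6 subunits of the MCM2-7 ring, the motor of the replicative helicase, were all higher with pladienolide B as deposited, a direction that MCM2, MCM3, MCM4 and MCM7 did not keep with the same total per library. Levels are deposited normalised counts throughout, in the order of the replicates. MCM2 stood at 11218, 12482 and 12495 in the indisulam libraries, 15418, 17605 and 17348 in the pladienolide B libraries and 11934, 12562 and 12642 in the DMSO libraries. MCM6 stood at 7829.6, 9065 and 8798 with indisulam, 13372, 14651 and 14660.4 with pladienolide B and 8816, 9391 and 9388 in DMSO. In both genes every pladienolide B library was above every DMSO and indisulam library, and the indisulam and DMSO values overlapped.

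None of the 6 MCM2-7 genes passed with indisulam, with log2 fold changes from -0.11 in MCM6 to 0.11 in MCM7. With pladienolide B all 6 were higher as deposited, from 1.26-fold in MCM7 (0.33 ± 0.06, with the SE given after ± for each log2 value; limma adjusted p = 0.000236) to 1.55-fold in MCM6 (0.63 ± 0.07, adjusted p = 1.17e-06). With the same total per library MCM6 alone was higher (0.16, adjusted p = 0.0411), MCM7 was lower (-0.14, adjusted p = 0.0235) and the other 4 lay between -0.06 and 0.01. After quantile normalisation MCM4, MCM5 and MCM6 were higher and MCM7 was lower (-0.25, adjusted p = 0.000443).

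MCM7 was the most abundant of the ring genes and MCM4 the least abundant. Per kb of principal transcript (GENCODE 29), MCM7 averaged 13000 ± 578 with indisulam, 15200 ± 958 with pladienolide B and 12000 ± 626 in DMSO (deposited value per kb, SD, n = 3). MCM4 averaged 1120 ± 88.6, 1560 ± 82.1 and 1170 ± 58.8 in the same order. The ratio between them within a library, which a single factor per library leaves as it is, was 11.3 to 12.1 with indisulam, 9.32 to 9.91 with pladienolide B and 10.0 to 10.6 in DMSO. Of the microRNA features MIR25, MIR93 and MIR106B inside MCM7, MIR25 had the highest mean, 0.0993% of that of MCM7.

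**Figure D2:**
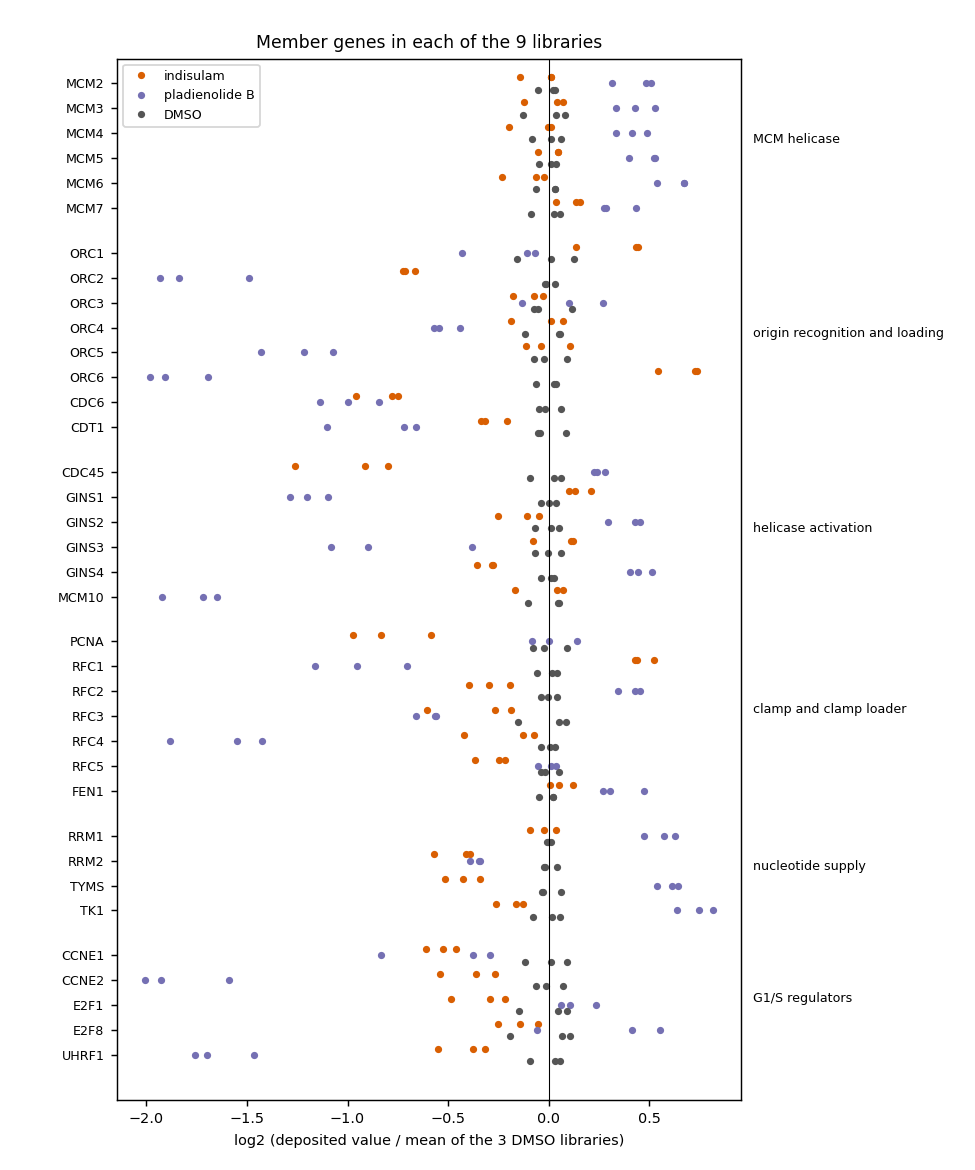
Deposited value of each of the 36 genes in each of the 9 libraries, as log2 of its ratio to the DMSO mean (x axis), with genes down the page by role and indisulam above pladienolide B above DMSO in each row. Pladienolide B libraries lie right of all DMSO libraries in every MCM2-7 row and far left of them in the rows of ORC2, ORC6, MCM10, RFC4, CCNE2 and UHRF1.

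The origin recognition complex marks the sites where replication can start, and its 6 subunit genes did not move together. ORC6, the smallest subunit and the one least tightly bound to the rest, stood at 1715, 1965 and 1954 with indisulam, 314, 364 and 298 with pladienolide B and 1126, 1198 and 1209 in DMSO. No values of the 3 groups overlapped: all indisulam libraries were above DMSO and all pladienolide B libraries were below it. The gene rose 1.59-fold with indisulam (0.67 ± 0.10, limma adjusted p = 0.000257) and fell to 27.6% of DMSO with pladienolide B (-1.86 ± 0.10, adjusted p = 1.49e-09). In the direct comparison ORC6 was at 17.3% of its indisulam level with pladienolide B (-2.53 ± 0.10, adjusted p = 1.16e-10).

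ORC2, a core subunit, fell with both drugs. Its values were 1246, 1257 and 1298 with indisulam, 539, 576 and 733 with pladienolide B and 2102, 2042 and 2033 in DMSO, with no overlap between any of the groups. It fell to 61.5% of DMSO with indisulam (-0.70 ± 0.10, limma adjusted p = 0.000279) and to 29.9% with pladienolide B (-1.75 ± 0.10, adjusted p = 4.22e-09). ORC5, an ATP-binding subunit, changed with pladienolide B, at 528, 613 and 677, against 1402, 1354 and 1515 in DMSO, a fall to 42.6% (-1.24 ± 0.10, adjusted p = 1.07e-07). Its indisulam values, 1388, 1315 and 1532, overlapped those of DMSO.

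ORC4 fell less with pladienolide B, to 69.9% of DMSO (-0.51 ± 0.09, limma adjusted p = 0.000105), and with indisulam it had a log2 fold change of -0.03 ± 0.09 (adjusted p = 0.814). ORC3 passed with neither drug as deposited, although with the same total per library it was lower with pladienolide B (-0.39, adjusted p = 0.0049). ORC1, the subunit that is degraded and made anew in each cell cycle, stood at 1967, 2418 and 2441 with indisulam, against 1608, 1807 and 1957 in DMSO. The lowest indisulam library was only just above the highest DMSO library. The rise of ORC1 passed narrowly (0.34 ± 0.11, adjusted p = 0.0396) and was lost with TMM scaling, the same total, no filter or edgeR, and when indisulam replicate 2 or 3 or DMSO replicate 1 or 2 was left out (0.27 to 0.35, adjusted p 0.0963 to 0.151). With pladienolide B its values, 1327, 1659.8 and 1709.8, overlapped those of DMSO and it was not called as deposited (-0.20 ± 0.11, adjusted p = 0.137). It was called lower there with TMM scaling (-0.28, adjusted p = 0.0453), in edgeR (-0.28, adjusted p = 0.0409) and with the same total (-0.67, adjusted p = 0.000183).

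Per kb of transcript the most abundant subunit gene of the complex was ORC6 in every indisulam library and ORC3 in every pladienolide B and DMSO library. The least abundant was ORC4 in every indisulam and DMSO library and ORC2 in every pladienolide B library. The ratio of the most to the least abundant subunit was 4.15 to 4.36 with indisulam, 5.73 to 8.75 with pladienolide B and 3.06 to 3.44 in DMSO. These ranges do not overlap, and they are given as a description because each follows from the changes of single subunits.

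**Figure D3:**
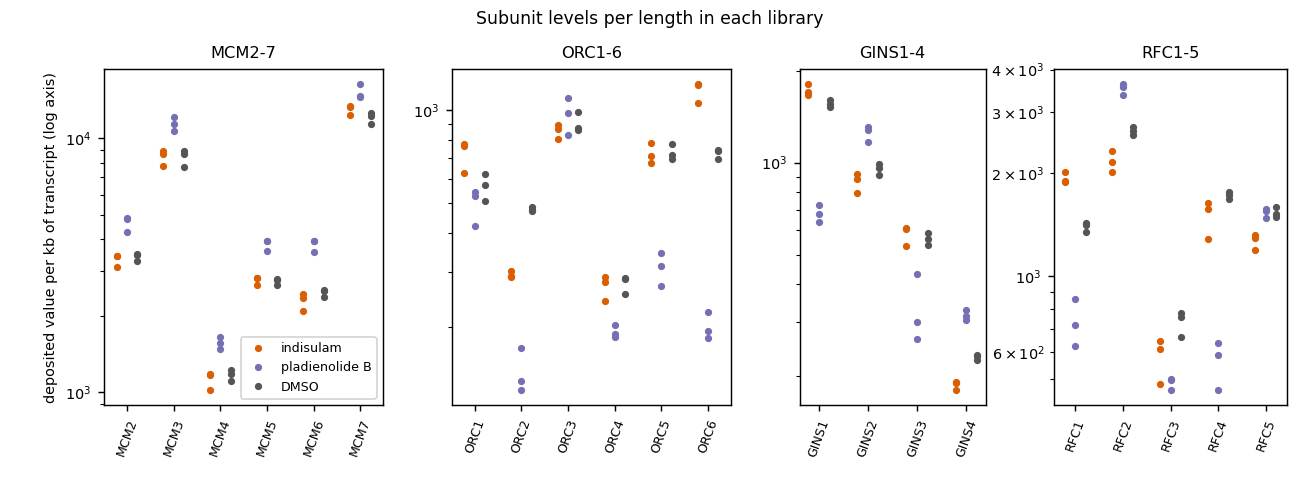
Deposited value per kb of principal transcript (log y axis) of each subunit gene of MCM2-7, ORC1-6, GINS1-4 and RFC1-5, 1 point per library, with indisulam left of pladienolide B left of DMSO. The MCM2-7 subunits keep the order of their means in all groups, whereas ORC6, GINS1 and RFC4 change place among the subunits of their complexes.

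The loading factor CDC6, the ATPase that joins ORC to bring in the MCM ring, fell with both drugs. CDC6 stood at 2891, 3336 and 3272 with indisulam, 2556, 2813 and 3127 with pladienolide B and 5541, 5437 and 5858 in DMSO, so every treated library was below every DMSO library. It was at 56.4% of DMSO with indisulam (-0.83 ± 0.08, limma adjusted p = 1.5e-05) and at 50.5% with pladienolide B (-0.99 ± 0.08, adjusted p = 1.05e-07). The difference between the drugs was -0.16 ± 0.08 (adjusted p = 0.0882) and their values overlapped. It was called lower with pladienolide B than with indisulam after TMM scaling (-0.20, adjusted p = 0.0442), in edgeR (-0.20, adjusted p = 0.0423), when indisulam replicate 1 (-0.23, adjusted p = 0.032) or pladienolide B replicate 3 (-0.24, adjusted p = 0.0164) was left out, and with the same total (-0.58, adjusted p = 4.75e-05).

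CDT1, which delivers the MCM ring and is destroyed in S phase so that origins are not licensed again, stood at 2399.8, 2365 and 2585 with indisulam, 1392, 1892 and 1818 with pladienolide B and 2905, 2882 and 3178 in DMSO. No value of one group fell within another. CDT1 fell to 56.9% of DMSO with pladienolide B (-0.82 ± 0.10, limma adjusted p = 6.24e-06). With indisulam it was just outside the threshold (-0.29 ± 0.10, adjusted p = 0.0526). It was called lower in 12 of the 20 alternatives and not called in 8. The 12 include the same total (-0.34, adjusted p = 0.028), quantile normalisation (-0.34, adjusted p = 0.0182) and TMM scaling (-0.33, adjusted p = 0.0325). They also include edgeR (-0.33, adjusted p = 0.0257) and DESeq2 (-0.29, adjusted p = 0.0268). Each fit that left out a pladienolide B library was among the 12 too.

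CDC45 and the GINS proteins turn the loaded ring into a working helicase, and CDC45 was among the genes that differed most between the drugs. It stood at 1719, 2369 and 2188 with indisulam, 4815, 4875 and 5005 with pladienolide B and 3861, 4199.5 and 4299 in DMSO. All indisulam libraries were far below the other groups and all pladienolide B libraries were above DMSO. CDC45 was at 50.8% of DMSO with indisulam (limma adjusted p = 1.58e-05), and between the drugs it was 2.34-fold higher with pladienolide B (1.24 ± 0.10, adjusted p = 7.52e-08; 0.82 with the same total). Its rise over DMSO with pladienolide B was small (0.25 ± 0.10, adjusted p = 0.0338). That rise was lost with TMM scaling, with quantile normalisation, with no filter and in edgeR, turned to -0.22 with the same total (adjusted p = 0.0608), and was lost without any 1 pladienolide B library or without DMSO replicate 1 or 2 (0.21 to 0.27, adjusted p 0.0526 to 0.121).

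The 4 subunits of GINS split with pladienolide B. GINS1 stood at 2361, 2200.2 and 2076 with pladienolide B and 4920.3, 5064 and 5184 in DMSO, a fall to 43.8% (-1.19 ± 0.06, limma adjusted p = 2.01e-09). GINS4 stood at 1208, 1269 and 1177 with pladienolide B and 865, 904 and 898 in DMSO, a 1.37-fold rise as deposited (0.45 ± 0.08, adjusted p = 0.000149) that was -0.02 with the same total. GINS2 was also higher as deposited (0.39 ± 0.07, adjusted p = 3e-04) and at -0.08 with the same total, while GINS3 was lower under both scalings (-0.79 ± 0.14, adjusted p = 2e-04). GINS3 lies wholly within CSNK2A2 on the opposite strand, a gene with a higher mean (2063 against 1121), and since the strand setting of the counting is not given their reads cannot be told apart.

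With indisulam GINS4 alone of the 4 changed, at 693, 731 and 734, all below DMSO (-0.31 ± 0.08, limma adjusted p = 0.0114). The GINS1 values with indisulam, 5416, 5542 and 5851, were all above DMSO without passing the threshold (0.15 ± 0.06, adjusted p = 0.108). Per kb the ratio of the most to the least abundant GINS gene was 8.96 to 9.43 with indisulam, 3.94 to 4.39 with pladienolide B and 6.62 to 6.83 in DMSO. GINS1 was the most abundant in every indisulam and DMSO library and GINS2 in every pladienolide B library.

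MCM10, which binds the helicase as it is activated and is needed for origin unwinding, fell with pladienolide B. Its values were 2695, 3111 and 3185 with indisulam, 798, 919.6 and 965 with pladienolide B and 2818, 3129 and 3134 in DMSO. The pladienolide B libraries lay at 29.5% of DMSO with no overlap (-1.76 ± 0.09, limma adjusted p = 1.32e-09), and the indisulam values overlapped those of DMSO (-0.02 ± 0.09, adjusted p = 0.912). MCM10 shares a name but not the ring with MCM2-7, and its direction with pladienolide B was opposite to theirs as deposited.

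PCNA forms the sliding clamp that tethers polymerases to DNA. It stood at 6835, 8949.8 and 7518 with indisulam, 12652, 14783 and 13424 with pladienolide B and 12717, 14290.3 and 13219 in DMSO. Every indisulam library was below every DMSO library, and the pladienolide B values overlapped those of DMSO. PCNA was at 57.9% of DMSO with indisulam (-0.79 ± 0.09, limma adjusted p = 4.19e-05). With pladienolide B it had a fold change of 0.02 ± 0.09 (adjusted p = 0.844) as deposited but was lower with the same total (-0.45, adjusted p = 0.000331) and with quantile normalisation (-0.34, adjusted p = 0.00282).

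RFC1 is the large subunit of the loader that opens the PCNA ring, and it took the opposite course under the 2 drugs. It stood at 9114, 9182 and 9743 with indisulam, 3506, 3031 and 4160.4 with pladienolide B and 6848, 6514 and 6962 in DMSO, with no overlap between any groups. RFC1 rose 1.38-fold with indisulam (0.46 ± 0.09, limma adjusted p = 0.00214) and fell to 52.6% of DMSO with pladienolide B (-0.94 ± 0.09, adjusted p = 5.6e-07).

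The 4 small RFC subunits differed among themselves. RFC4 stood at 1863, 2278 and 2369 with indisulam, 852, 676 and 927 with pladienolide B and 2425, 2504 and 2547 in DMSO. It fell to 32.8% of DMSO with pladienolide B (-1.62 ± 0.12, limma adjusted p = 2.64e-08), and its indisulam values were all below DMSO without passing (-0.21 ± 0.12, adjusted p = 0.207). RFC2 stood at 3410.1, 3658 and 3928 with indisulam, 5707, 6138 and 6049 with pladienolide B and 4371, 4475 and 4609.6 in DMSO, lower with indisulam (-0.29 ± 0.06, adjusted p = 0.00466) and higher as deposited with pladienolide B (0.41 ± 0.06, adjusted p = 6.27e-05), where the same total gave -0.06. RFC5 was lower with indisulam (-0.28 ± 0.07, adjusted p = 0.00825), with values of 2555, 2595 and 2440.4 in pladienolide B libraries that overlapped those of DMSO; with the same total it was lower with pladienolide B too (-0.47).

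RFC3 was lower with both drugs, at 1163, 1552 and 1468 with indisulam and 1200.0, 1119 and 1196 with pladienolide B, against 1593, 1830.3 and 1879 in DMSO. Its call with indisulam (-0.35 ± 0.11, limma adjusted p = 0.0267) was lost without indisulam replicate 1 (-0.22, adjusted p = 0.116), without DMSO replicate 2 (-0.32, adjusted p = 0.0993) or without DMSO replicate 3 (-0.30, adjusted p = 0.103). A feature without a symbol (mean 931, against 1445 for RFC3) overlaps RFC3, so part of these reads may belong to either. Per kb, RFC2 was the most and RFC3 the least abundant loader gene in every library, with a ratio of 3.34 to 4.15 for indisulam, 6.74 to 7.77 for pladienolide B and 3.46 to 3.89 for DMSO.

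FEN1, the nuclease that trims flaps between Okazaki fragments and binds PCNA, stood at 15317, 16610.1 and 15841 with indisulam, 18421, 21183 and 18867 with pladienolide B and 14770.2, 15497 and 15515 in DMSO. It was higher with pladienolide B as deposited (0.35 ± 0.06, limma adjusted p = 0.000149) but lower with the same total (-0.12, adjusted p = 0.0472). With indisulam its fold change was 0.06 ± 0.06 (adjusted p = 0.503).

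The enzymes of nucleotide supply feed deoxynucleotides to the fork, and 3 of the 4 fell with indisulam, where 12.4% of all features were lower. TYMS, thymidylate synthase, stood at 6452, 7276 and 6871 with indisulam, 14102, 14384 and 13386 with pladienolide B and 8999.5, 9621 and 9045 in DMSO. TK1, the cytosolic thymidine kinase, stood at 8952, 8756 and 8177 with indisulam, 17242, 16446 and 15264 with pladienolide B and 10193, 9898 and 9292 in DMSO. In both thymidylate genes the 3 groups were fully separated, with pladienolide B on top and indisulam at the bottom.

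TYMS was at 74.5% of DMSO with indisulam (-0.43 ± 0.06, limma adjusted p = 0.000202) and 1.51-fold higher with pladienolide B (0.60 ± 0.06, adjusted p = 7.41e-07; 0.13 with the same total, adjusted p = 0.047). TK1 was 1.67-fold higher with pladienolide B (0.74 ± 0.06, adjusted p = 1.44e-07; 0.26 with the same total, adjusted p = 0.00123). Its fall with indisulam was small (-0.18 ± 0.06, adjusted p = 0.044) and was lost with no filter and when any 1 indisulam library or DMSO replicate 1 or 2 was left out (-0.14 to -0.21, adjusted p 0.0548 to 0.175). Between the drugs TYMS was 2.03-fold and TK1 1.89-fold higher with pladienolide B, and both differences kept an adjusted p under 0.05 with the same total (0.61 and 0.50).

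The subunits of ribonucleotide reductase, which makes deoxynucleotides, parted under pladienolide B. RRM1, the large subunit, stood at 14121, 15475 and 14828 with indisulam, 23319, 22444 and 20952 with pladienolide B and 14959.6, 15203 and 15027 in DMSO. RRM2, the small subunit whose level follows S phase, stood at 9684, 10802 and 10961 with indisulam, 10963, 11344 and 11294 with pladienolide B and 14123, 14200.3 and 14783 in DMSO. RRM1 was 1.48-fold higher with pladienolide B as deposited (0.56 ± 0.06, limma adjusted p = 6.93e-07), a rise that did not pass with the same total (0.09, adjusted p = 0.125). RRM2 was lower with pladienolide B (-0.36 ± 0.06, adjusted p = 7.12e-05) and with indisulam (-0.46 ± 0.06, adjusted p = 9.07e-05), and RRM1 had a fold change of -0.03 ± 0.06 with indisulam (adjusted p = 0.776).

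Among the G1/S regulators, 4 of the 5 measured genes fell with indisulam and 3 with pladienolide B. Of all tested features 12.4% were lower with indisulam and 35.5% with pladienolide B. With the same total these shares were 15.1% and 53.9%. Cyclin E1 and cyclin E2 activate the kinase CDK2 at S phase entry. CCNE2 stood at 1444, 1639 and 1745 with indisulam, 552, 524 and 699 with pladienolide B and 2015, 2084 and 2208 in DMSO, and CCNE1 stood at 767, 723 and 800.4, 619, 849 and 901 and 1018, 1114 and 1177 in the same groups. All treated values of both genes were below all DMSO values. The fall of CCNE2 with pladienolide B, to 28.1% of DMSO (-1.84 ± 0.11, limma adjusted p = 5.04e-09), was larger than that of CCNE1, to 71.6% (-0.50 ± 0.13, adjusted p = 0.00293), although the difference between the genes was not tested. The CCNE1 call with pladienolide B was lost with quantile normalisation (-0.18, adjusted p = 0.223).

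With indisulam CCNE1 fell to 69.2% of DMSO (-0.53 ± 0.13, limma adjusted p = 0.00737) and CCNE2 to 76.6% (-0.39 ± 0.11, adjusted p = 0.0185). The call of CCNE2 was lost without DMSO replicate 2, DMSO replicate 3 or indisulam replicate 1 (-0.31 to -0.39, adjusted p 0.0582 to 0.0863). CCNE2 spans 15.0 kb and overlaps INTS8, which has the higher mean (2122 against 1435), on the opposite strand over 1523 bases. Since the strand setting of the counting is not given, reads from the shared bases cannot be told apart.

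E2F1, an activator of S phase genes, stood at 3589, 4328 and 4107 with indisulam, 5255, 5929 and 5417 with pladienolide B and 4541, 5352 and 5199.6 in DMSO. It was lower with indisulam (-0.33 ± 0.08, limma adjusted p = 0.0108), a call lost when indisulam replicate 1 (-0.25, adjusted p = 0.0551) or DMSO replicate 2 (-0.28, adjusted p = 0.0615) was left out. With pladienolide B its values overlapped those of DMSO (0.14 ± 0.08, adjusted p = 0.154), and with the same total it was lower (-0.33, adjusted p = 0.00209). With the replicate number as a block in the fit E2F1 was instead higher (0.14, limma adjusted p = 0.0184). E2F8, an E2F family repressor, stood at 1742, 2414 and 2662 with pladienolide B and 1585, 1948 and 1897 in DMSO and just missed the threshold (0.31 ± 0.13, adjusted p = 0.0511). Without pladienolide B replicate 1, the lowest of the 3, it was higher (0.49, adjusted p = 0.000815), as it was with quantile normalisation (0.45, adjusted p = 0.00548) and in DESeq2 (0.33, adjusted p = 0.0221), but with the same total it was at -0.16 (adjusted p = 0.311).

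UHRF1, which binds hemimethylated DNA behind the fork and recruits the maintenance methyltransferase, fell with both drugs. It stood at 4130.1, 4861 and 4664 with indisulam, 1787, 1864 and 2191 with pladienolide B and 5687, 6189 and 6288 in DMSO, and no groups overlapped. UHRF1 was at 75.2% of DMSO with indisulam (-0.41 ± 0.09, limma adjusted p = 0.00319) and at 32.2% with pladienolide B (-1.64 ± 0.09, adjusted p = 1.54e-09).

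**Figure D4:**
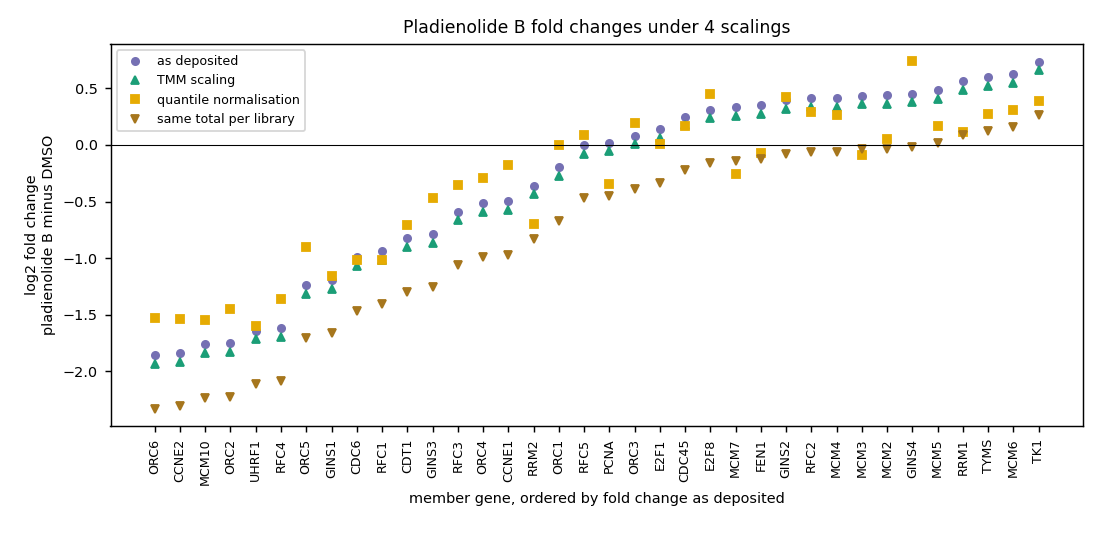
Log2 fold change of each gene between pladienolide B and DMSO (y axis) as deposited and under 3 other scalings, with genes ordered along the x axis by the deposited value. The genes at the left stay below 0 under every scaling plotted, while most of those above 0 as deposited fall near or below 0 with the same total per library, where TK1, MCM6 and TYMS are the 3 called higher.

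Set directly against indisulam, which differs in dose and time as well, pladienolide B gave higher values in 18 of the 36 genes (50%) and lower values in 13 (36.1%), where 34.7% of all tested features were higher and 35.6% lower (31 genes either way, 86.1%, against 70.3%). The groups did not overlap in 31 genes (86.1%), against 71.8% of all features. With the same total per library 8 of the 18 were still higher and all 13 were still lower, where 17.9% of all features were higher and 50.4% lower. CDC45 and TYMS were at least 2-fold higher (8.32% of all features were) and 9 genes were at least 2-fold lower (18.4% of all features were), among them ORC6, MCM10, CCNE2 and RFC1. PCNA was 1.75-fold higher with pladienolide B (0.82 ± 0.09, limma adjusted p = 2.03e-06; 0.40 with the same total), and RFC1 was at 38.2% of its indisulam level (-1.40 ± 0.09, adjusted p = 1.2e-08).

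Other genes of the same processes were taken from 4 lists of 60 genes, of which 59 were measured. With indisulam 16 of the 59 were lower and 1 was higher (median log2 fold change -0.14, beside 0.05 over all features), where 12.4% of all features were lower and 14.5% higher. Scaled to the same total, 21 were lower and 0 higher, where 15.1% of all features were lower and 10.2% higher. Among 14 licensing and firing partners 2 were lower, led by TOPBP1, which activates the checkpoint kinase and helps CDC45 load (-0.47 ± 0.09, limma adjusted p = 0.00136). Of 17 fork and clamp partners 7 were lower, led by CHTF18, the core of an alternative clamp loader (-0.79 ± 0.07, adjusted p = 8.13e-06), and 1 was higher, the histone chaperone ASF1A (0.26 ± 0.08, adjusted p = 0.0271; adjusted p = 0.0987 with the same total). CTPS1, which makes cytidine triphosphate, led the 2 of 6 nucleotide partners that were lower (-0.39 ± 0.10, adjusted p = 0.0141), and the retinoblastoma relative RBL1 led the 5 of 22 G1/S partners that were lower (-0.73 ± 0.06, adjusted p = 6.73e-06).

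With pladienolide B 36 of the 59 partner genes were lower and 13 higher as deposited (median -0.39, beside -0.01 over all features), where 35.5% of all features were lower and 34.3% higher. Scaled to the same total, 48 were lower and 6 higher, where 53.9% of all features were lower and 16.2% higher. Of the licensing and firing partners 11 of 14 were lower, led by CDC7, the kinase that phosphorylates the MCM ring, and 1 was higher, TICRR, which helps load CDC45. CDC7 stood at 342, 295 and 346 with pladienolide B and 1047, 1121 and 1223 in DMSO, a fall without overlap (-1.78 ± 0.10, limma adjusted p = 4.51e-09). TICRR stood at 2326, 2278 and 3049 with pladienolide B and 1258, 1388 and 1493 in DMSO (0.88 ± 0.11, adjusted p = 6.26e-06; 0.40 with the same total).

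Of the fork and clamp partners 10 of 17 were lower with pladienolide B and 4 higher. Of all tested features 35.5% were lower and 34.3% higher, or 53.9% and 16.2% with the same total. The lower partners were led by CHAF1A, the large subunit of the histone chaperone that binds PCNA, and the higher by the small RPA subunit RPA3. CHAF1A stood at 600.0, 792 and 708 with pladienolide B and 3101, 3538 and 3347 in DMSO, with no overlap (-2.26 ± 0.10, limma adjusted p = 2.8e-10). RPA3 was higher as deposited (0.57 ± 0.09, adjusted p = 3.81e-05) and did not pass with the same total (0.10). Of 6 nucleotide partners 4 were higher, led by the dUTPase gene DUT (0.83 ± 0.06, adjusted p = 2.34e-08; 0.36 with the same total), and 2 lower, led by RRM2B, the p53-induced small reductase subunit (-0.64 ± 0.13, adjusted p = 0.000782).

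The G1/S partners held the widest changes of the lists with pladienolide B, with 13 of 22 lower and 4 higher. Of all tested features 35.5% were lower and 34.3% higher, or 53.9% and 16.2% with the same total. E2F5, a repressor of the E2F family, stood at 50.2, 40 and 57.1 with pladienolide B and 482, 436 and 391 in DMSO (-3.14 ± 0.16, limma adjusted p = 1.46e-09). CDKN1B, the p27 inhibitor of cyclin E and CDK2, stood at 9418, 8753 and 7846 with pladienolide B and 3027, 3329 and 2989.6 in DMSO (1.47 ± 0.08, adjusted p = 1.34e-09; 1.00 with the same total). The indisulam values of CDKN1B, 3128, 3465 and 3209, overlapped those of DMSO (0.07 ± 0.08, adjusted p = 0.545).

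Between the drugs 19 of the 59 partner genes were higher with pladienolide B and 28 lower, where 34.7% of all features were higher and 35.6% lower. Of the same 59 genes, 9 were higher and 41 lower with the same total, where 17.9% of all features were higher and 50.4% lower. In each of the licensing and G1/S lists the genes with the widest differences were the same as against DMSO, CDC7 and TICRR, and E2F5 and CDKN1B, with log2 differences of -1.58, 0.75, -2.84 and 1.41 over indisulam. In the other lists they were CHAF1A (-2.09) and the maintenance methyltransferase DNMT1 (0.67), and, among the lower nucleotide partners, RRM2B (-0.79). DNMT1, the partner of UHRF1, was at 65.3% of DMSO with indisulam (-0.62 ± 0.06, limma adjusted p = 1.94e-05) and had a fold change of 0.05 ± 0.06 with pladienolide B (adjusted p = 0.467), which became -0.42 with the same total.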

How the data were processed

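The table held normalised counts (a signal) for 9 libraries: counts per feature divided by 1 size factor per library, deposited by the authors and made with DESeq2 per the labels. Per the submitters' processing notes the tools included STAR 2.7.5a, SAMtools, Picard and FastQC, with build hg38. The library kit was stranded per the labels' protocols. Which program counted the reads, and whether it used strand, is not given in the sources used here. In each library 100% of values were whole multiples of 1 read's value within a tolerance of 0.01, so read counts were recovered, 59312100 to 83910831 per library. In pladienolide B replicate 1, the library with the most reads, that value was 1.003, so its depth rests on values that are themselves close to whole numbers. A count of 0 allows up to 3 reads, a deposited value of 2.48 to 3.87, which covers counting error only. No pair of libraries of a group agreed within sampling noise (chi-square per gene of 8.83 or more).

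Since the values are normalised, features with a mean of at least 10 were tested with limma 3.58.1 under R 4.3.3, with a mean trend, on values as log2(value + 1), all 9 libraries in 1 fit, two-sided, with Benjamini-Hochberg adjustment over all 16846 at 0.05. Fold changes are on the log2(value + 1) scale. The script was tested on simulated data. Alternatives were other pseudocounts (0.5 and 5), filters (none, or a mean of 50) and scalings (TMM, quantile, the same total), edgeR 4.0.16 and DESeq2 1.42.0 on the recovered counts, 2 groups at a time, a replicate block, and leaving out each library. The genes, the partner lists and these choices were made with earlier results of these data known. Partner genes are named by the largest called change per comparison, list and direction. One gene that this rule names is not reported here. Transcript lengths come from GENCODE 29 and promoters from RefSeq (GRCh38.p14), matched by symbol. Overlaps used the deposited coordinates.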

Additional observations from a re-analysis of the deposited data

How the results depend on the processing

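The numbers of the 36 genes called stayed within 1.5 times the reported ones, except that the same total per library left 3 higher with pladienolide B against DMSO (14 as reported) and 8 higher against indisulam (18 as reported). Leaving out 1 library at a time gave 2 to 3 higher and 11 to 16 lower with indisulam, 13 to 14 higher and 16 to 16 lower with pladienolide B, and 18 to 19 higher and 13 to 15 lower between the drugs. With the same total, values called before or after the change turned in sign for pladienolide B against DMSO in MCM2 (-0.035), MCM3 (-0.0377), MCM4 (-0.0581), MCM7 (-0.14), ORC3 (-0.39), CDC45 (-0.22), GINS2 (-0.0788), GINS4 (-0.0185), PCNA (-0.45), RFC2 (-0.0617), FEN1 (-0.12) and E2F1 (-0.33), and against indisulam in MCM7 (-0.20), RFC5 (-0.14), FEN1 (-0.13), RRM2 (-0.32) and CCNE1 (-0.39). With quantile normalisation such values turned against DMSO in MCM3 (-0.0875), MCM7 (-0.25), PCNA (-0.34) and FEN1 (-0.0734), and against indisulam in MCM3 (-0.0694), MCM7 (-0.35), FEN1 (-0.11) and RRM2 (-0.18). The same total lowers every pladienolide B value by construction, and the cause of the quantile changes was not tested. No other alternative turned the sign of a called value. Over all features, indisulam gave 1620 higher without DMSO replicate 2 and 1565 without indisulam replicate 3 (2437 as reported), and with the same total pladienolide B gave 2733 higher and 9086 lower against DMSO and 3014 higher against indisulam (5776, 5976 and 5842 as reported). With the replicate number as a block, 4 of the 36 genes were higher and 16 lower with indisulam, 16 and 17 with pladienolide B, and 18 and 15 between the drugs. The calls it added were MCM7 (0.11, limma adjusted p = 0.0355) and CDT1 (-0.29, 0.0105) with indisulam, ORC1 (-0.20, 0.00762), E2F1 (0.14, 0.0184) and E2F8 (0.31, 0.00219) with pladienolide B, and CDC6 (-0.16, 0.0193) and RFC3 (-0.24, 0.0183) between the drugs, and none was lost. Deviations of same-numbered libraries correlated at 0.00266 to 0.128 over all features, and those of different number at -0.124 to 0.045. All 9 libraries correlated best, over all features, with one of their own number. Over the 36 genes, same-numbered pairs of a DMSO and a drug library correlated at 0.445 to 0.723, and pairs of different number at -0.418 to -0.0472. Between the drugs these ranges were 0.0234 to 0.48 and -0.407 to 0.288. The numbers may therefore pair the libraries, which the main fit leaves out and the block allows for. Over all alternatives, of 2160 values of single genes 43 lost the call with the same sign, 41 gained it and 25 turned in sign with a call on either side. Another 40 turned in sign with no call on either side, among them E2F8 for pladienolide B against DMSO (-0.16) and ORC3 against indisulam (-0.25), both with the same total. With 3 libraries a group, the indisulam calls of ORC1, RFC3, TK1, CCNE2 and E2F1 were lost in some fits that left out 1 library. For each gene this held for more than 1 library, and the sign of the fold change stayed the same.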

Other observations

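Gene structure was set beside the fold changes as a description. The 36 genes had a median span of 19.2 kb and a median of 11 introns in the principal GENCODE transcript, beside 31.5 kb and 8 introns over 12279 tested protein-coding genes. Across the 36 genes, the Spearman correlation of the indisulam fold change was 0.01 with span and 0.11 with intron number, beside -0.07 and -0.24 over the 12279 genes. For pladienolide B it was -0.16 with span and -0.02 with intron number across the 36 genes, beside -0.24 and -0.22 over the 12279. These are correlations across genes of the same libraries, and genes are not independent replicates.

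Of the 36 genes, 14 overlapped another feature of the table, 8 of them a feature with a mean of at least 10 and 2 a feature with a higher mean than their own, GINS3 and CCNE2. ORC4 overlaps MBD5 and ACVR2A, and TYMS overlaps ENOSF1 over 3261 bases, whose mean was 8.08% of that of TYMS.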
